A study of Mus musculus with 5 samples.

Results

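Distal PU.1-only summits inside genes were the 1934 positions of the PU.1 ChIP-Seq list that lay inside a GENCODE M21 gene, more than 1000 bp from every transcript start, with no summit of the BATF, Input, goat Ig or rabbit Ig list within 500 bp. They were 21.6% of the 8947 PU.1 summits. The members were thus selected on measured values, namely where the PU.1 library gave a called peak and where the other libraries gave none, so their distances to transcript starts and to other summits are given as a description only. The cells were naive CD4 T cells from spleen and nodes of wild-type C57/Bl6j mice aged 7 weeks, cultured on CD3/CD28 coated plates in Th9 conditions, which were 20 ng/ml of IL-4 and 2 ng/ml of TGF-β beside an antibody that blocks IFNγ. All 5 libraries (PU.1 antibody, BATF antibody, goat Ig, rabbit Ig and Input, which is chromatin sequenced without any antibody) came from this 1 condition, and each was sequenced as a single library. No test between libraries was therefore made, and shares carry exact (Clopper-Pearson) 95% intervals that cover counting error only, since neighbouring summits and copies of the same repeat are not independent. The labels and the methods of the study differ on the sequencing device and on the number of cells. They also differ on the length of the culture, which the figure legends of the study give in hours. The lists hold no read counts, so the depth behind each summit is unknown.

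PU.1, encoded by *Spi1*, is a transcription factor of the ETS family. It reads a purine-rich sequence called the PU box, GAGGAA, which in its preferred form runs on as GAGGAAGT. It is best known as a master regulator of macrophages and B cells, and in T helper cells it is known for driving *Il9* transcription in Th9 cells. In macrophages and B cells most of its binding lies far from promoters, in introns and between genes, where it often works beside AP-1, IRF or RUNX factors. ChIP-Seq locates such binding through pile-ups of the fragments that an antibody recovers. Microsatellites, which are tandem repeats of very short units, are common in mammalian introns and are places where short reads are hard to assign.

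The sequences at these summits show what the list holds. Each is printed on the plus strand of GRCm38 (mm10) over the 60 bases before the summit and the 60 bases that start with it, and all lie in introns. The first group holds 5 of the members with GAGGAAGT close to the summit and no simple repeat, with the motif in capitals, read as GAGGAAGT or as its reverse complement ACTTCCTC. The *Mageb18* member at chrX:92324956-92325075 holds it once, in a window that the reference masks in full as repeat.
Mageb18: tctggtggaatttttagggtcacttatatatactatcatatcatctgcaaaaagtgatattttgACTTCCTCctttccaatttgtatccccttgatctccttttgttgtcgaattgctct
In *Gm5087* (chr14:13230835-13230954), in *Itpr1* (chr6:108359405-108359524) and in *Cdh18* (chr15:22974177-22974296) the motif recurs as part of a longer unit repeated in tandem.
Gm5087: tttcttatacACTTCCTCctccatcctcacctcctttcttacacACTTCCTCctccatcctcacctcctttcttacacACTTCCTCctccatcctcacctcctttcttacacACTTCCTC
Itpr1: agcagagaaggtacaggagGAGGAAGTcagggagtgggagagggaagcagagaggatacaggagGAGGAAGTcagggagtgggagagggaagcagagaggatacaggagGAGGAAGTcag
Cdh18: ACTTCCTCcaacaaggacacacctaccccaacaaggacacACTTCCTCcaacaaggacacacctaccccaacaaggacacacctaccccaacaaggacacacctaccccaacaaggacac
The *Tmem182* member (chr1:40853170-40853289) lies in a pyrimidine-rich stretch.
Tmem182: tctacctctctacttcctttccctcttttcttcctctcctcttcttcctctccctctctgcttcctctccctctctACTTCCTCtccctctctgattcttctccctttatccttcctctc

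The second group holds a high-scoring member of 3 of the 4 most frequent repeat units, with copies of the unit that follow each other directly in capitals. They are AC in *Fhit* (chr14:10587568-10587687), AAAG in *Psg27* (chr7:18565992-18566111) and AAG in *Wnt2* (chr6:17999989-18000108), where units are named without regard to strand.
Fhit: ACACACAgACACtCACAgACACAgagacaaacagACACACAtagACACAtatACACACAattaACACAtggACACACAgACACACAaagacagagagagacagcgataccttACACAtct
Psg27: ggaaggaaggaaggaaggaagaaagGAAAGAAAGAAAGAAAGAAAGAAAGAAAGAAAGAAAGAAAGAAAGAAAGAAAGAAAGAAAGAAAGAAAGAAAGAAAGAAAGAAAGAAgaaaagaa
Wnt2: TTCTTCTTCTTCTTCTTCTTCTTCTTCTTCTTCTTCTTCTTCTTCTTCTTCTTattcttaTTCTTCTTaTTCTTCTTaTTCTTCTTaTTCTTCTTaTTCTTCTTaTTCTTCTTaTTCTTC
The AC stretches are broken every few bases, while the AAAG stretch in *Psg27* runs on. In *Wnt2* the stretch runs on in the first part of the printed sequence and is broken at short intervals after it. A member in *Gata4* (chr14:63255824-63255943, CG dinucleotides in capitals) was added after its values were seen, to show the small GC-rich class.
Gata4: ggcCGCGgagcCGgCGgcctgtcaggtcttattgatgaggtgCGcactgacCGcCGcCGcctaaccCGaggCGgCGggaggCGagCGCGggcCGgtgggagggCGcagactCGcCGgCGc

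Of the 8947 PU.1 summits, 8759 lay on chromosomes 1 to 19 or X, 7413 of these were distal, and 3162 of the distal ones lay inside a gene. From these, 1010 had an Input summit within 500 bp, 548 a BATF summit, 43 a rabbit Ig summit and 36 a goat Ig summit, and 1228 were removed in all. At the edge of the rule, the members closest to a transcript start were 1007 bp away, and the PU.1 summits that just missed were 997, 995 and 994 bp away. The members closest to a summit of another list were 502, 517 and 519 bp from it, against 499, 481 and 468 bp for those just removed. Few members stood near this limit, as 20 had another summit less than 200 bp beyond it.

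Each summit carried a score from the peak caller, which ranks the peaks of a list. The members had a median score of 3.32, with an interquartile range from 2.90 to 4.26 and a maximum of 59.7, and 16.0% scored at least 5. PU.1-only summits between genes scored alike, with a median of 3.37. Distal PU.1 summits with a BATF summit and no control summit nearby had a median of 4.26, and those near an Input summit one of 4.62. The scores were coarse, since 3 values were shared by 850 of the 1934 members (44.0%).

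The 10 highest members by score were a mixed set. The highest, at 59.7, was in a coding exon of *Gm21738* (position 19417243 of chromosome 14), with an Input summit 1534 bp and a BATF summit 1669 bp away. The next was the AAG repeat of *Wnt2*, which encodes a secreted Wnt ligand, with a score of 12.8. *Greb1*, an oestrogen-responsive gene, and *Psg27*, a pregnancy-specific glycoprotein gene, both had a member with a score of 10.9, the first in a repeat of the unit AACCCT and the second in the AAAG repeat shown above. The AC repeats of *Nedd4l*, *Fhit* and *Gucy2c* scored 10.3, 9.59 and 9.17. The *Chm* member, at 9.60, was fully masked but no simple repeat. *Lrrc4c* (AAAG, 9.59) and *Lingo1* (ACAT, 9.38), which encode leucine-rich repeat proteins of neurons, completed the list. None of these 10 members held GAGGAAGT, and 8 of them were simple repeats.

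The members lay almost entirely in introns. An intron held 1875 of them (96.9%, 95% interval 96.1 to 97.7%), a coding exon 23, an untranslated region 18 and an exon of a non-coding transcript 18. Introns had 1.86 members per Mb (95% interval 1.77 to 1.94) and exons 0.705 (95% interval 0.537 to 0.909), where the length counted is the distal sequence of all genes, 1093 Mb in all. A protein-coding gene held 1609 members (83.2%), and a lincRNA gene held 243. The density was 1.77 members per Mb (95% interval 1.69 to 1.85) inside genes, and PU.1-only summits between genes had a similar density of 1.84 per Mb (95% interval 1.77 to 1.91).

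Density did not fall with distance from the promoter. It was 1.53 members per Mb at 1000 to 2000 bp from a transcript start (95% interval 1.28 to 1.81), 1.92 at 5000 to 10000 bp (95% interval 1.73 to 2.12) and 1.69 beyond 50000 bp (95% interval 1.5 to 1.90). Among chromosomes it was lowest on X, at 1.09 (95% interval 0.816 to 1.43), and highest on chromosome 10, at 2.51 (95% interval 2.13 to 2.95). The members were scattered, with a median of 298511 bp to the nearest other member, and 4 of them lay within 1000 bp of another.

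Of the 35462 genes with distal sequence, 1690 held a member (4.77%), and of the protein-coding genes 1317 of 20780 did (6.34%). Long genes held them far more often. Among protein-coding genes with at most 10 kb of distal sequence 0.641% held a member, among those with 100 to 300 kb 24.7%, and among those with over 1000 kb 80.7%. The number of members per Mb of these genes moved little, between 1.56 and 1.85 across the 6 length classes. Protein-coding genes with a member had a median length of 118 kb, against 17.2 kb for those without.

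**Figure D1:**
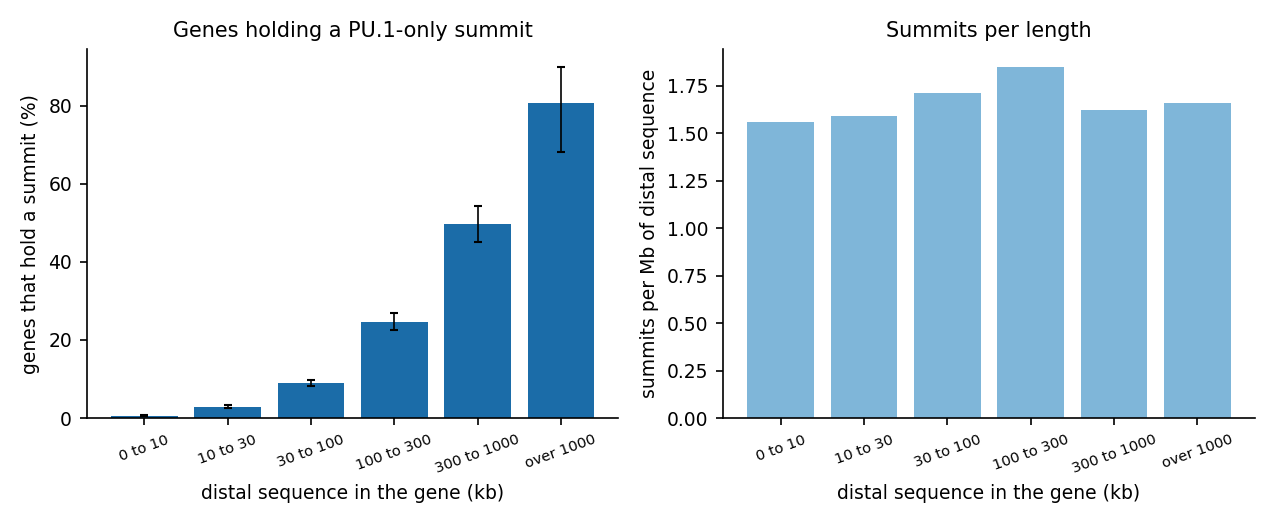
Protein-coding genes grouped by their distal sequence (kb, x axis). Left, the percent of genes that hold at least 1 distal PU.1-only summit, with exact 95% intervals, which climbs from 0.641% to 80.7%. Right, summits per Mb of distal sequence in the same classes, which stays between 1.56 and 1.85.

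Among the genes with the most members, *Gm20388*, a locus of 4435 kb on chromosome 8, held 17 members (4.42 per Mb). *Rbms3*, which encodes an RNA-binding protein, held 7 in 1057 kb (6.70 per Mb). *C230088H06Rik* and *Gm26624*, a pair of lincRNA genes on opposite strands of the same part of chromosome 4, held the same 7 members, since one gene lies within the other.

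Gene lists of T helper cells were searched for members. The lists were drawn up with earlier results of these data known, and they are described by counts beside the 4.77% of all genes, the 6.34% of protein-coding genes and the 1.77 members per Mb of all distal gene sequence. Among 91 transcription factor genes of T helper cells with distal sequence, 18 held a member (19.8%) and the density was 2.66 per Mb (95% interval 1.67 to 4.02). For 80 genes of T cell receptor signalling these values were 12 genes (15%) and 2.09 per Mb (95% interval 1.22 to 3.34). For 43 cytokine and chemokine receptor genes they were 5 genes (11.6%) and 3.34 per Mb (95% interval 1.08 to 7.78), and for 26 T helper cytokine genes 1 gene, *Il2*, and 6.41 per Mb (95% interval 0.162 to 35.7). Of 56 myeloid and B cell genes known as PU.1 targets, 6 held a member (10.7%), at 2.44 per Mb (95% interval 0.896 to 5.31). In these 5 lists the density was above that of all genes, and its interval holds the value of all genes. Of 60 long genes of neurons, listed for contrast because they are not genes of T cells, 45 held a member (75%) with 90 members in all, and their density of 1.30 per Mb (95% interval 1.05 to 1.6) was below that of all genes.

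Together the T cell, myeloid and B cell lists held 51 members. Of these, 49 lay in introns (96.1%, against 96.9% of all members) and 46 had over 50% masked bases (90.2%, against 93.0%). Simple repeats were 36 of them (70.6%, 95% interval 56.2 to 82.5%), against 54.9% of all members, and AC repeats 19 (37.3%, 95% interval 24.1 to 51.9%), against 27.0%. GAGGAAGT was in 1 of them. The transcription factor genes with the highest scores were *Runx1*, a factor of T cell and blood lineages (7.68, AC repeat), *Tcf12*, an E protein (7.51, no simple repeat), the ETS family genes *Fli1* (5.59, AAAG) and *Erg* (5.43, AC), *Runx2* (5.42, AC), *Mef2a* (5.17, AAG) and *Stat4*, which carries the IL-12 signal (5.07, AC). *Runx1*, *Fli1*, *Erg* and *Rora* held a second member, with scores of 2.17, 2.25, 4.26 and 3.19. Of genes known for PU.1 in other blood cells, *Lyn*, a Src family kinase (6.70, AC), *Pax5*, the factor of B cell identity (5.43, AC), and *Itgb2*, the common chain of the leukocyte integrins (4.48, AC), each held 1. The highest receptor member was at *Cxcr5*, the receptor that guides lymphocytes to follicles (4.58, AAAG), and the *Il2* member, in an intron, scored 4.26 and was no simple repeat.

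In the T cell receptor list, *Itpr1*, the inositol trisphosphate receptor that releases calcium after receptor signalling, held 2 members with scores of 4.26 and 1.99, the first of them the GAGGAAGT array printed above.

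The sequence of the members was dominated by short tandem repeats. A window of 200 bp around the summit was called a simple repeat when over 50% of its bases equalled the base a fixed 1 to 6 bp before. By this measure 54.9% of the members were simple repeats (95% interval 52.7 to 57.1%), against 2.77% of the windows 5000 bp to either side and 2.18% of all 5466663 windows into which distal gene sequence can be cut. PU.1-only summits between genes had 48.6%, a difference of 6.28 percentage points (95% interval 3.29 to 9.25). BATF-only summits inside genes, chosen by the same rule in the BATF list, had 58.9% (95% interval 54.6 to 63.1%), and Input-only summits inside genes had 9.80% (95% interval 9.11 to 10.5%). The immunoglobulin controls, whose lists were short and whose distal summits inside genes were taken whether or not another list had one nearby, had 36.0% (goat Ig, 95% interval 22.9 to 50.8%, n = 50) and 41.8% (rabbit Ig, 95% interval 28.7 to 55.9%, n = 55). Distal PU.1 summits near an Input summit, which the rule left out, had 47.9%. The share was thus high in each list made with an antibody or immunoglobulin and low at the Input-only summits. The repeat units differed, however. Units of adenine and guanine only, such as AAAG, held 20.9% of members. They also held 22.8% of PU.1-only summits between genes and 16.6% of BATF-only summits inside genes, so they were not particular to the members. Distal PU.1 summits near an Input summit had 12.3% and Input-only summits inside genes 1.62%. Such purine units held 0 of 50 goat Ig summits (upper 95% limit 7.11%) and 0 of 55 rabbit Ig summits (upper 95% limit 6.49%). AC repeats held 9 and 8 of these summits, against 27.0% of members. Input-only summits also had no summit of another list nearby, a rule not applied to the immunoglobulin lists. The part of the precipitation step in the share of simple repeats was not tested. Members that scored above the median of the PU.1 list were simple repeats in 65.8% of cases (95% interval 62.2 to 69.3%, n = 705).

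Members were masked as repeat by the reference almost throughout. Over 50% of the window was masked in 93.0% of members (95% interval 91.8 to 94.1%), in 21.1% of the flanking windows, in 21.9% of all distal gene windows and in 95% of Input-only summits inside genes. Counted at the summit base, 1766 members lay on masked bases, or 5.56 per Mb, and 168 on unmasked bases, or 0.217 per Mb.

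**Figure D2:**
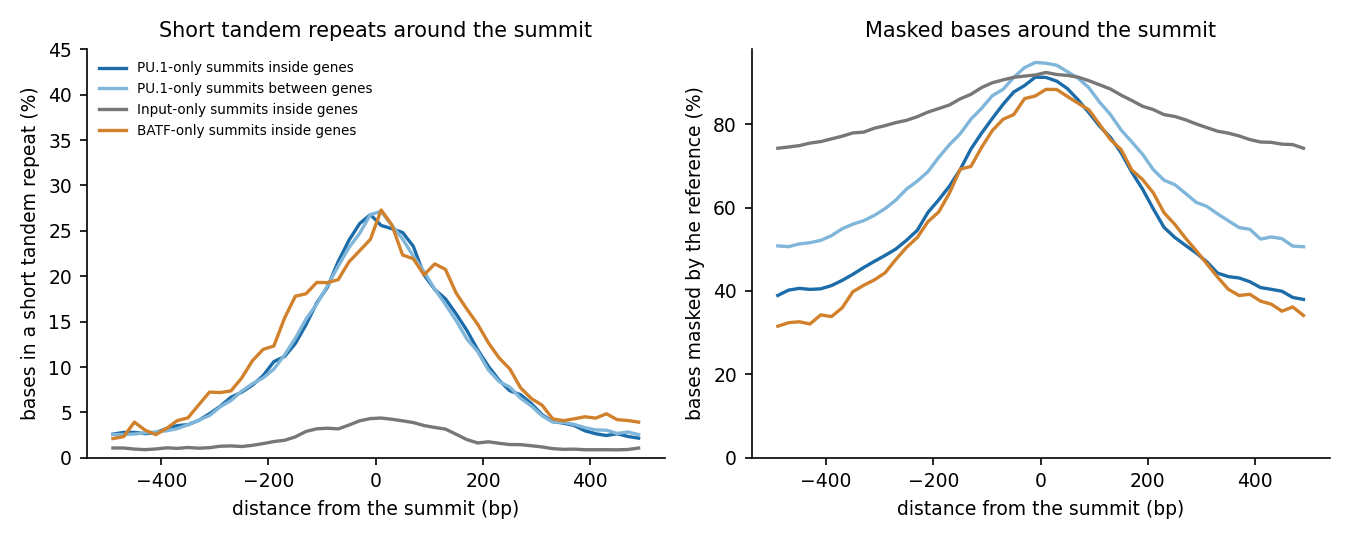
Percent of bases in a short tandem repeat (left) and percent of bases masked by the reference (right), against the distance from the summit (bp), in bins of 20 bp, for PU.1-only summits inside and between genes, BATF-only summits inside genes and Input-only summits inside genes. A base counted as repeat when over 70% of the 40 bases around it equalled the base 1 to 6 bp before. Repeats peak at the summit and fall away within 500 bp for the PU.1-only and BATF-only summits, while the Input-only summits have a low peak of repeats and wide masked surroundings.

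A few repeat units made up most of this share. The AC unit held 523 members (27.0%), against 0.684% of all distal gene windows, which is 39.5 times as frequent. The AAAG unit held 212 members (11.0%), 81.8 times its share of all windows. The AG unit held 61 members, AAG 49, and AGG and ACAT 32 each, at 7.35, 37.1, 22.5 and 63.4 times their shares. Units of adenine and guanine only, which have all purines on one strand, held 20.9% of the members in all. AC repeats were more frequent inside genes than between them, by 6.65 percentage points (95% interval 4.11 to 9.21), and AAAG repeats differed by -1.62 points (95% interval -3.53 to 0.319). At the other end, windows that were neither simple repeat nor over 50% masked make up 77.8% of distal gene sequence. Only 122 members (6.31%) had such a window around their summit.

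**Figure D3:**
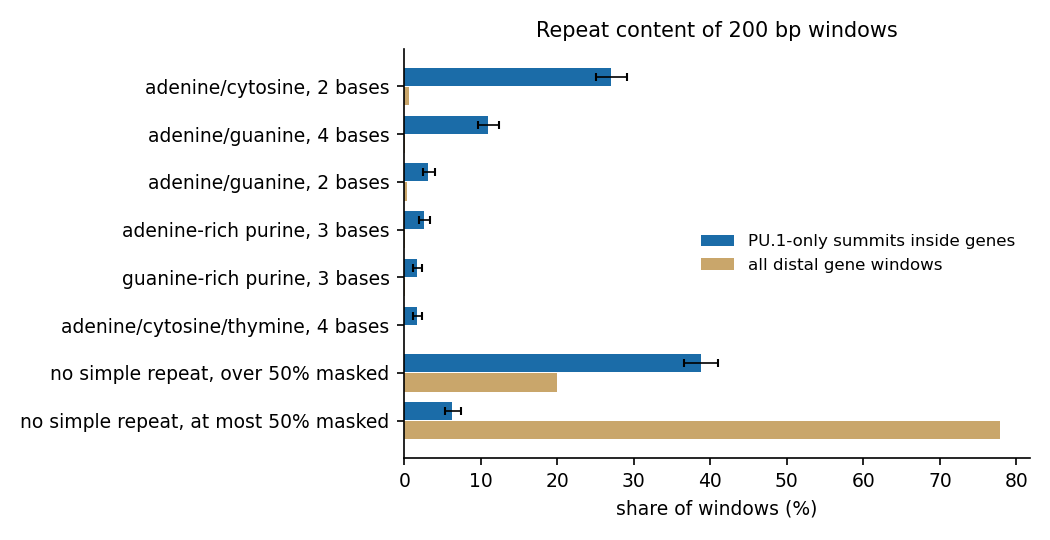
Percent of 200 bp windows (x axis) in each class of repeat, for the 1934 distal PU.1-only summits inside genes (exact 95% intervals) and for all distal gene windows. Repeats are named by the bases and the length of their unit, the top row being the AC unit. The 2 uppermost rows hold 27.0% and 11.0% of the summits against 0.684% and 0.134% of the windows.

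The AC repeats under the summits were not the long, perfect ones that are common in introns. The longest stretch without interruption was at least 30 bp in 13 of 523 AC members (2.49%, 95% interval 1.33 to 4.21%), against 57.7% of all AC windows of distal gene sequence (95% interval 57.2 to 58.2%), and its median was 12 bp against 34 bp. Members were classed by the window centred on their summit, and distal gene sequence by windows on a fixed grid. AC members with a longest stretch under 15 bp numbered 586 per 10000 AC windows of that class (95% interval 530 to 646). This is a ratio of 2 counts and not a share of windows with a summit. For stretches of 15 to 29 bp this value was 122 (95% interval 101 to 147), and for 30 to 59 bp it was 5.75 (95% interval 2.97 to 10.1). In windows over 60% periodic, a stricter definition of the repeat, the shares with a stretch of at least 30 bp were 3.33% and 49.7%. The *Runx1*, *Stat4* and *Fhit* members named above belong to this AC class.

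The AAAG repeats did not show this. A stretch of at least 30 bp was found in 91.5% of the 212 AAAG members (95% interval 86.9 to 94.9%) and in 92.2% of all AAAG windows, and members per 10000 windows were 304, 309 and 259 for stretches of 15 to 29, 30 to 59 and at least 60 bp. AG members were like the AC ones, with 14.8% (95% interval 6.98 to 26.2%) against 74.8% of all AG windows. AAG members lay between, with 69.4% (95% interval 54.6 to 81.7%) against 88.0%. The lack of long AC stretches was shared by the other lists. A stretch of at least 30 bp was found in 1.53% of AC windows at BATF-only summits inside genes, in 3.26% at PU.1-only summits between genes and in 0.503% at Input-only summits inside genes, a library without any antibody. How reads in perfect repeats were aligned and filtered is not given in the sources used here, and its part in these values was not tested.

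**Figure D4:**
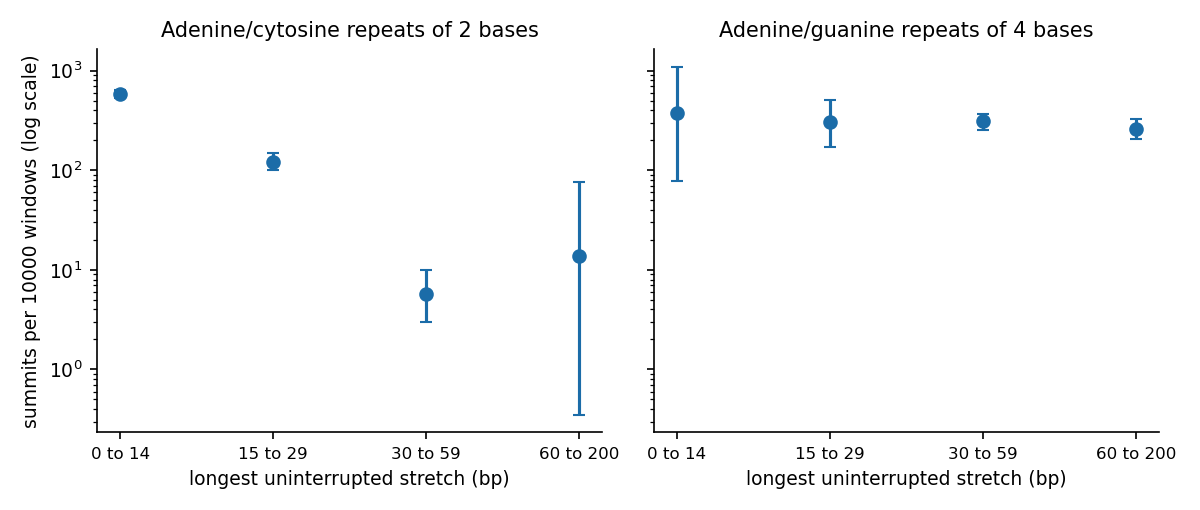
Distal PU.1-only summits inside genes per 10000 windows of distal gene sequence (log scale), by the longest uninterrupted stretch of the repeat in the window (bp), for AC repeats (left) and AAAG repeats (right). Points carry exact Poisson 95% intervals. For AC the value falls from 586 to 5.75 between stretches under 15 bp and those of 30 to 59 bp, and for AAAG it stays between 259 and 375.

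Outside the simple repeats, 872 members remained, of which 750 were over 50% masked. The 30 bases centred on the summit occurred once in chromosomes 1 to 19 and X for 34.5% of these members (95% interval 31.4 to 37.8%), and at least 100 times for 41.1%. In simple repeats the 30 bases were unique for 60.5% of members (95% interval 57.5 to 63.5%). Over all members the unique share was 48.8%, against 34.3% of Input-only summits inside genes and 87.9% of distal gene windows sampled at every 1000th place. Longer tandem units, of 7 to 60 bp, were found in 30 of the 872 members (3.44%, 95% interval 2.33 to 4.88%), against 0.401% of their flanks and 0.249% of distal gene windows outside simple repeats. Examples are *Slc9b1*, a sodium-proton exchanger gene, with a unit of 42 bp (score 6.46), and *Pak1*, a kinase that acts on the cytoskeleton, with a unit of 31 bp (score 5.86).

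The PU.1 motif was not enriched at the members. GAGGAAGT, searched on both strands, was in 11 of the 1934 windows (0.569%, 95% interval 0.284 to 1.02%), in 1.04% of the flanking windows (95% interval 0.741 to 1.41%) and in 1.17% of all distal gene windows. Outside simple repeats the shares were 1.03% (95% interval 0.473 to 1.95%), 1.07% and 1.19%. The shorter PU box GAGGAA, which GAGGAAGT contains, was in 16.6% of members (95% interval 15 to 18.4%), 18.8% of flanks and 17.7% of all windows. Outside simple repeats it was in 20.6% of members (95% interval 18 to 23.5%), against 18.7% of flanks, 17.6% of all windows and 21.4% of Input-only summits inside genes. Matches to the PU box did not rise steadily towards the summit. Per 100 windows outside simple repeats, the 25 bp before and after the summit held 3.33 and 4.93 matches, and the outermost bins 3.67 and 4.24. The value of 4.93 was the highest of any bin. In the flanks the same bins held 2.90 and 2.34, and 2.80 and 2.56, so matches were more frequent in members at the centre and at the edges alike. The name PU.1-only therefore describes the antibody and the rule, and the sequence does not single these summits out as PU boxes. No match says only that these letters are not in the window.

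The 11 members with GAGGAAGT had a median score of 3.19, against 3.32 for all members, and held 31 matches, 25 of them in 5 members with more than 1. *Gm47071* held 12, *Gm5087* 5, *Itpr1* 4, and *Cdh18* and *Ryr2* 2 each. *Mageb18*, the highest of them with a score of 5.07, *Ccser1*, *A530021J07Rik*, *Rarb*, *Tmem182* and *Nbas* held 1 each. *Rarb* encodes a retinoic acid receptor and *Ryr2* the calcium release channel of heart muscle. Matches read along the gene's strand were 25 of 31 (80.6%, 95% interval 62.5 to 92.5%), but counted by member they were 6 of 11, since the arrays of *Gm47071*, *Gm5087* and *Itpr1* run along the gene.

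Other motifs were searched in the same way. The ETS core GGAAGT was in 4.45% of members (95% interval 3.57 to 5.46%) against 11.3% of flanks, the AP-1 site (TGACTCA or TGAGTCA) in 0.620% against 3.13%, the GATA site AGATAA in 5.27% against 11.8% and the NFAT core TGGAAA in 10.3% against 19.8%. All distal gene windows held these at 11.2%, 3.25%, 12.9% and 20.0%. Outside simple repeats the first 3 were still lower in members, at 7.80% (95% interval 6.11 to 9.78%) against 11.5% of flanks, at 0.917% (95% interval 0.397 to 1.80%) against 3.17% and at 5.39% (95% interval 3.99 to 7.10%) against 11.9%. Also outside simple repeats, these 3 were at 7.73%, 0.909% and 7.27% at BATF-only summits inside genes. PU.1-only summits between genes had 9.94%, 0.728% and 8.33%, and Input-only summits inside genes 15.2%, 0.779% and 11.9%. The low AP-1 share was thus seen in each of these classes. The NFAT core, outside simple repeats, was at 19.4% in members (95% interval 16.8 to 22.2%) against 20.1% of flanks, so its gap was seen only with the simple repeats counted. The STAT string TTCNNNGAA was in 4.96% of all members (95% interval 4.04 to 6.03%) against 7.02% of flanks and 6.96% of all windows, but outside simple repeats in 10.7% (95% interval 8.69 to 12.9%) against 7.19% and 7.06%, with 13.3% at Input-only summits inside genes. The RUNX site TGTGGT was at 14.7% against 14.9%, with 14.4% of all windows. Higher in members were the IRF string GAAANNGAA, at 12.5% against 7.07% of flanks and 7.46% of all windows, and the ETS-IRF string GGAANNGAA, at 8.89% against 5.85% and 6.31%. Outside simple repeats they were at 8.14% (95% interval 6.41 to 10.2%) against 7.03% and at 7.11% (95% interval 5.49 to 9.02%) against 5.78%. Input-only summits inside genes held them at 16.6% and 12.8% in all, and at 17.2% and 13.7% outside simple repeats.

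The IRF8 motif of the study, which has thymine at every other place, was also searched. Its other places all allow guanine, so a run of TG, which is an AC repeat read on the other strand, matches it. AC repeats held 27.0% of the members, and their part in the shares below was not tested. A match says only that the letters fit, not that IRF8 was bound. The motif was found in 44.9% of the members (95% interval 42.6 to 47.1%), against 6.63% of flanks and 5.94% of all distal gene windows. Outside simple repeats it was in 15% of members (95% interval 12.7 to 17.6%), against 4.85% of flanks, 4.77% of all windows and 3.16% of Input-only summits inside genes. BATF-only summits inside genes had 45.8% in all and 11.8% outside simple repeats (95% interval 7.87 to 16.8%). PU.1-only summits between genes had 39.7%, which is 5.22 percentage points less than the members (95% interval 2.27 to 8.17).

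**Figure D5:**
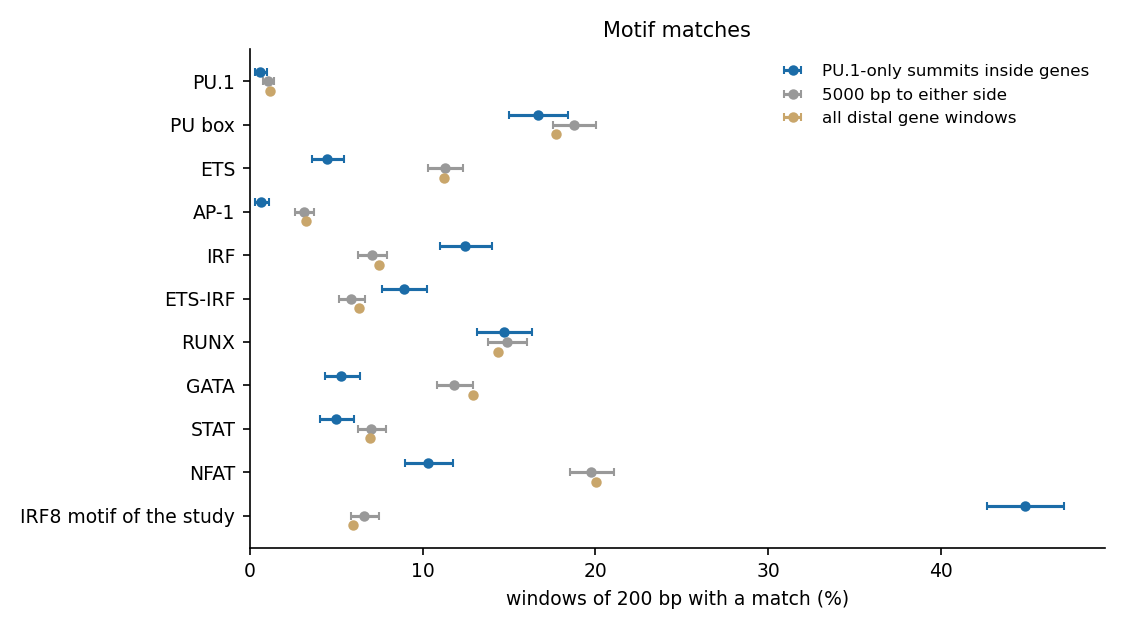
Percent of 200 bp windows with at least 1 match on either strand (x axis) for each motif searched, at the 1934 distal PU.1-only summits inside genes, 5000 bp to either side of them and in all distal gene windows, with exact 95% intervals. The PU.1 motif and the PU box are no more frequent at the summits than around them, and the IRF8 motif of the study is at 44.9% against 6.63%. AC repeats can match this last motif.

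A small class of members had the opposite composition. A window GC content of at least 65% was found in 33 members (1.71%, 95% interval 1.18 to 2.39%), against 0.374% of PU.1-only summits between genes, 0.518% of flanks, 0.186% of Input-only summits inside genes and 0.182% of all distal gene windows. BATF-only summits inside genes had 3.93% (95% interval 2.45 to 5.94%). There were thus 33.2 GC-rich members per 10000 GC-rich windows of distal gene sequence, against 3.54 members per 10000 windows of any kind. Of the 33, 30 were no simple repeat, 29 had under 25% masked bases and 20 lay in coding exons, which is 20 of all 23 members in coding exons. They include *Sptbn4*, a spectrin of nerve axons (score 6.30), *Fignl2* (5.59), *Rtn4rl2*, a Nogo receptor (5.43), *Shroom3*, which shapes epithelia (5.32), and the homeobox and T-box genes *Nkx2-4* and *Tbr1* (both 3.73). Intronic ones were at *Gata4* (6.09), printed above, and *Wnt3* (3.19), whose genes act in heart and embryo. The PU box was in 1 of the 33 and GAGGAAGT in none. Their median distance to a transcript start was 3799 bp.

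Repeats in the members had no orientation of their own relative to the gene. Of 505 AC members in genes of a single strand, 44.0% read as AC on the sense strand (95% interval 39.6 to 48.4%), and of 383 members with purine-only units 42.3% had the purines on the sense strand (95% interval 37.3 to 47.4%). Both shares were under 50%, but so were those of all distal gene windows with such repeats, at 46.1% and 42.8%. The differences were -2.17 percentage points (95% interval -6.46 to 2.22) for AC and -0.498 points (95% interval -5.36 to 4.52) for purine units.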

How the data were processed

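Each file deposited by the authors lists summits, single bases with a score that their peak caller gave. The meaning of the score is not given in the sources used here. The summit names are those of MACS2, while the methods of the study name MACS for conversion and FindPeaks for calling, and the submitters' processing notes name Bowtie2 and mm10. The deposited score was used only to rank and filter summits. Caller options and the control used, if any, are not given, and both could change which summits are listed.

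Positions were compared with GENCODE M21 and GRCm38.p6, whose lower-case bases mark repeats. Windows of 200 bp were scanned for motifs on both strands, periodicity, masking and GC content, at summits, 5000 bp to either side and over all distal gene sequence. Densities carry exact Poisson intervals and differences of shares Newcombe intervals. With 1 library per antibody no p-value was computed. The scanning functions were tested on simulated data. The members, gene lists and motifs were chosen with earlier results of these data known. Genes named are the 10 members with the highest score, the 5 genes with most members, listed genes among the 30 highest, and members with GAGGAAGT within 50 bp of the summit outside simple repeats. Some genes and sequences that these rules choose are not reported here. GC-rich members, those with longer tandem units, further listed genes and other GAGGAAGT members were named after their values were seen. Alternatives covered the distances, window sizes, thresholds, biotypes, scores and motif strings. The periodicity threshold of 60% for AC repeats was added after the data were seen. The tools were scipy 1.17.1, pandas 2.3.3, numpy 2.4.6 and matplotlib 3.10.9 under Python 3.11.15.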

Additional observations from a re-analysis of the deposited data

How the results depend on the processing

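Of 48 alternatives, 29 left the value within the 95% interval of the reported one, or the count within 1.5 times, and 19 moved it. Requiring a score above the median of the PU.1 list left 705 members, with 65.8% in simple repeats and 1.92% of genes holding one. Counting only summits over 2000 bp from a transcript start gave 97.8% in introns. Protein-coding genes alone gave 6.42% of genes with a member and 61.5% of PU.1 motif matches on the sense strand. Windows of 400 bp gave 1.34% of members with GAGGAAGT, 45.4% in simple repeats and 89.8% over 50% masked. GAGGAA gave 16.6%, with 45.6% of matches on the sense strand, and GGAAGT 4.45%. Members in no simple repeat held GAGGAAGT at 1.03%, and flanks at 2000 bp held it at 1.47%. Thresholds of over 40% and over 60% periodic bases gave 66.2% and 35.7% simple repeats, and thresholds of over 25% and over 75% masked bases gave 96.3% and 81.7%. Unmasked bases alone gave 0.217 members per Mb. Depth is unknown, so a place without a summit sets no limit on binding there. No paired analysis was possible because each antibody has 1 library, and for the same reason no replicate could be left out.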
